A study of Mus musculus with 4 samples.

Results

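The Bcl2 family decides, through protein contacts at the outer mitochondrial membrane, whether a cell enters the intrinsic pathway of apoptosis. The genes described here are Bax and 9 relatives chosen by name, so that 10 genes stand for the family among the 55421 genes in each count table. They are the effectors Bax and Bak1, the anti-apoptotic genes Bcl2, Bcl2l1 and Mcl1, and the BH3-only genes Bcl2l11, Bid, Pmaip1, Bbc3 and Bad. No measured value entered their choice, but results of these libraries were known when it was made. All 10 genes passed the filter of at least 1 CPM (the count of a gene scaled to a library of 1000000 counts) in at least 2 samples, as did 14492 genes in all. None of the 10 genes passed the test between the groups after adjustment over all genes by edgeR, nor did any other gene (0% called in each direction). H2-Q6 and H2-Q7, which code for Qa-2 and were nearly absent from Qa2- libraries, were not called either. The lack of calls thus does not show equal levels. Without overlap between the groups, Bax (1.61-fold), Bbc3 (1.63-fold) and Bak1 (1.23-fold) were higher and Bcl2l11 (0.696-fold) was lower in WT. Of all genes tested, 25.4% were higher and 24.5% lower in this way.

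Transcripts were measured by RNA sequencing in whole uteri of 2 WT mice and 2 Qa2- mice, all pregnant by syngeneic mating and taken at E18.5, with 1 library per mouse. WT mice are C57BL/6J. Qa2- mice are B6.K1 (B6.Cg-H2b3/FlaCmwJ), which do not make the non-classical MHC class I molecule Qa-2. They are no engineered knockout but arose spontaneously from crosses between H2 congenic strains, so the loss of Qa-2 and other strain differences cannot be told apart. The design asks how the uterine transcriptome at the end of pregnancy differs when Qa-2 is lacking in mother and fetus.

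In healthy cells, Bcl2, Bcl2l1 (Bcl-xL) and Mcl1 proteins hold the effectors Bax and Bak in check. After damage or loss of survival signals, BH3-only proteins occupy the groove of the anti-apoptotic proteins or engage the effectors directly, and Bax and Bak then form pores that release cytochrome c. Much of this control lies in protein contacts, localization and cleavage, which transcript levels do not show. In the uterus, apoptosis is known from the remodelling of endometrium and decidua.

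The feature that joins all branches of the family is the BH3 motif, a short helix that docks into the groove of a partner. The coding sequences of this motif are shown to make the kinship of the measured genes visible. Each run covers 42 bases of coding strand, 5′ to 3′, and the capitals mark the 6 codons from the leucine codon through the aspartate codon of the core.
Bax: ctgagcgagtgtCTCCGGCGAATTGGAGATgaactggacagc
Bak1: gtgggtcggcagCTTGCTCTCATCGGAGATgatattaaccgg
Bcl2: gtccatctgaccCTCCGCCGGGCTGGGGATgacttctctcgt
Bcl2l1: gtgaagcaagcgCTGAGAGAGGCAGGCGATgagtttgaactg
Mcl1: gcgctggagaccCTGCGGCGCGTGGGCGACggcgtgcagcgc
Bcl2l11: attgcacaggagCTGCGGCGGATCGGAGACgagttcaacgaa
Bid: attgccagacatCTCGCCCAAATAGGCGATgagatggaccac
Bbc3: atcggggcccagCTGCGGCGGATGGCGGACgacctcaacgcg
Bad: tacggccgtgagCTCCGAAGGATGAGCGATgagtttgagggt

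The sequences were read from GENCODE M21 transcripts on GRCm38. The Bax run lies in exon 3 of 6 at chr7:45465994-45466035 (minus strand), the Bak1 run in exon 4 of 6 at chr17:27022528-27022569 (minus strand), and the Bbc3 run in exon 3 of 4 at chr7:16313761-16313802 (plus strand). A leucine codon, 3 codons of any kind, a glycine codon and an aspartate codon in this order were found in 8 of the 10 genes. Pmaip1, which is not printed, holds this order at 2 places. In Bbc3 an alanine codon and in Bad a serine codon stands where the other genes have glycine. The order is short and common, since 13.2% of 21760 protein-coding genes hold it somewhere.

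The libraries held between 33286390 and 41041299 counted read pairs, with both WT libraries deeper, and 3 counts stood for 0.0731 to 0.0901 CPM. H2-Q6 and H2-Q7, which code for Qa-2, were checked first. H2-Q6 had 4204 and 1192 counts in WT and 3 in each Qa2- library, and H2-Q7 had 6318 and 1251 counts in WT and 4 and 2 in Qa2-. The labels were thus met in all 4 libraries. With 2 mice per group edgeR called neither gene (adjusted p = 0.2285 for each), while DESeq2 called both. Smooth muscle, epithelial and stromal markers were present in each library, as labelled for uterus. A pair of libraries stood apart by markers of fetal tissue. The summed level of 5 trophoblast markers was 24.6 CPM in WT replicate 2 against 0.229 to 3.78 CPM elsewhere, and that of 4 yolk sac markers was 482 CPM in Qa2- replicate 1 against 5.66 to 43.4 CPM elsewhere. For each member, values with single libraries left out are given beside its result. Fewer cells of a type and less RNA per cell cannot be told apart in such bulk tissue.

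Levels of different genes were compared as normalized CPM per kilobase of exon. Mcl1, the short-lived guardian of many cell types, had the highest level of the family, at 60.9 to 72.5 CPM per kilobase. It lay above all other members in every library. Bak1 (mean of the 4 libraries, 25.2), Bcl2l1 (21.6), Bax (20.1) and Bad (17.3 CPM per kilobase) followed, and the ranges of neighbours in this order overlapped. The level of Bax was divided by all 1576 exonic bases, of which 192 are shared with Gm45808 and lost read pairs. It can thus be understated, and its place among these neighbours is uncertain. Bid (6.02) and Pmaip1 (5.70) lay lower, without overlap with Bad. The lowest levels were those of Bbc3 (3.34), Bcl2l11 (1.94) and Bcl2 (1.55 CPM per kilobase), whose neighbouring ranges again overlapped. Bcl2, the name-giving gene of the family, thus had the lowest mean level per kilobase of the 10 genes, between 1.33 and 1.70 CPM per kilobase. This order rests on the annotated exon lengths, with 9157 bases for Bcl2. By CPM alone, Bbc3 was the lowest (means of 8.78 in WT and 5.39 in Qa2-, against 14.7 and 13.7 for Bcl2).

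**Figure D1:**
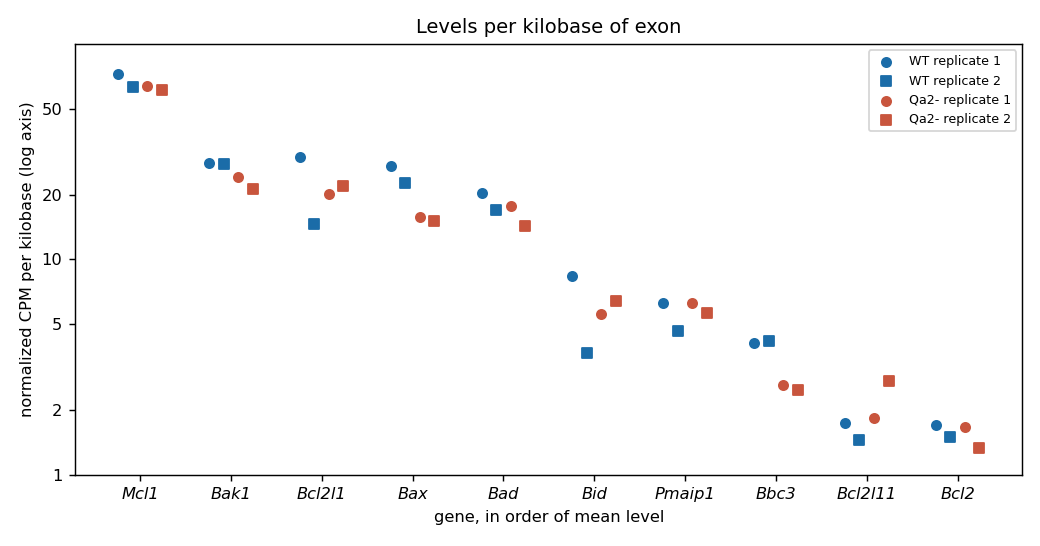
Normalized CPM per kilobase of exon (log axis) of the 10 Bcl2 family genes in order of their mean level, with 1 point per library. Mcl1 stood at 60.9 to 72.5 and Bcl2 at 1.33 to 1.70, and the ranges of neighbours were separate only after Mcl1, Bad and Pmaip1.

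From here on, levels are CPM on library sizes scaled by TMM, and differences are log2 fold changes of WT over Qa2- with their standard error (SE) and 95% confidence interval (CI) from edgeR's quasi-likelihood test. All 14492 genes entered the Benjamini-Hochberg adjustment. Each group has n = 2 mice.

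Bax, the effector that moves from the cytosol to mitochondria to form pores, had 1708 and 1347 counts in WT and 880 and 833 in Qa2-. Its levels were 42.6 and 35.7 CPM in WT (39.1 ± 4.84, SD) against 24.8 and 23.8 CPM in Qa2- (24.3 ± 0.692, SD). Both WT libraries lay above both Qa2- libraries, and the WT libraries differed from each other by 1.19-fold. The log2 fold change was 0.69 (SE 0.17, 95% CI 0.26 to 1.11), with an unadjusted p of 0.00855 and an adjusted p of 0.255 by edgeR. By DESeq2 the adjusted p was 0.0838, and over all alternatives it ranged from 0.0838 to 0.818. The log2 fold change was 0.80 without WT replicate 2 and 0.72 without Qa2- replicate 1, the libraries with fetal markers, and between 0.53 and 0.80 when any single library was left out. Bax was among the genes that the study listed as higher in WT from these same libraries, so that its direction here is no independent evidence. Bax lies on chromosome 7 (GRCm38, 45461697 to 45466898, minus strand). On the same strand it shares 192 of its 1576 exonic bases with Gm45808, and read pairs there were counted to neither gene. Gm45808 had no counts in any library.

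Bak1, the effector that resides in the mitochondrial membrane, was measured at 67.2 and 66.6 CPM in WT and at 58.0 and 50.8 CPM in Qa2-. The groups did not overlap, but the difference was small. The log2 fold change was 0.30 (SE 0.15, 95% CI -0.08 to 0.67, adjusted p = 0.399 by edgeR). Bak1 lies on chromosome 17 (27019810 to 27029009), 8.41 Mb from H2-Q7, and so on the chromosome of the H2 region in which the strains differ. How far that region reaches was not tested. The log2 value of Bak1 was 0.30 without WT replicate 2 and 0.40 without Qa2- replicate 1. The interval of Bax held the estimate of Bak1, and whether the 2 effectors differed in their response was not tested.

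The anti-apoptotic genes overlapped between the groups. Mcl1 stood at 248 and 217 CPM in WT and at 218 and 208 CPM in Qa2-, with a log2 fold change of 0.13 (95% CI -0.35 to 0.60). Bcl2 stood at 15.6 and 13.8 CPM in WT and at 15.3 and 12.2 CPM in Qa2-, with a log2 fold change of 0.10 (95% CI -0.44 to 0.63). For these genes the libraries of the groups lay side by side, and the intervals held both lower and higher levels in WT. Leaving out 1 library gave -0.0019 to 0.22 for Mcl1 (lowest without WT replicate 1, highest without WT replicate 2) and -0.0609 to 0.27 for Bcl2 (lowest without Qa2- replicate 2, highest without Qa2- replicate 1). Bcl2l1 varied widely within the WT group, with 137 and 66.9 CPM in the 2 WT libraries against 92.5 and 100.3 CPM in Qa2-. Its WT libraries differed by 2.05-fold and lay on either side of the Qa2- libraries. The log2 fold change of Bcl2l1 was 0.08 (95% CI -0.82 to 0.98), and its sign depended on WT replicate 1, without which it was -0.56 (adjusted p = 0.307 by edgeR). Without WT replicate 2 it was 0.50, and without Qa2- replicate 1 it was 0.02. Adjusted p-values of the 3 genes ranged from 0.778 to 0.927 by edgeR.

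**Figure D2:**
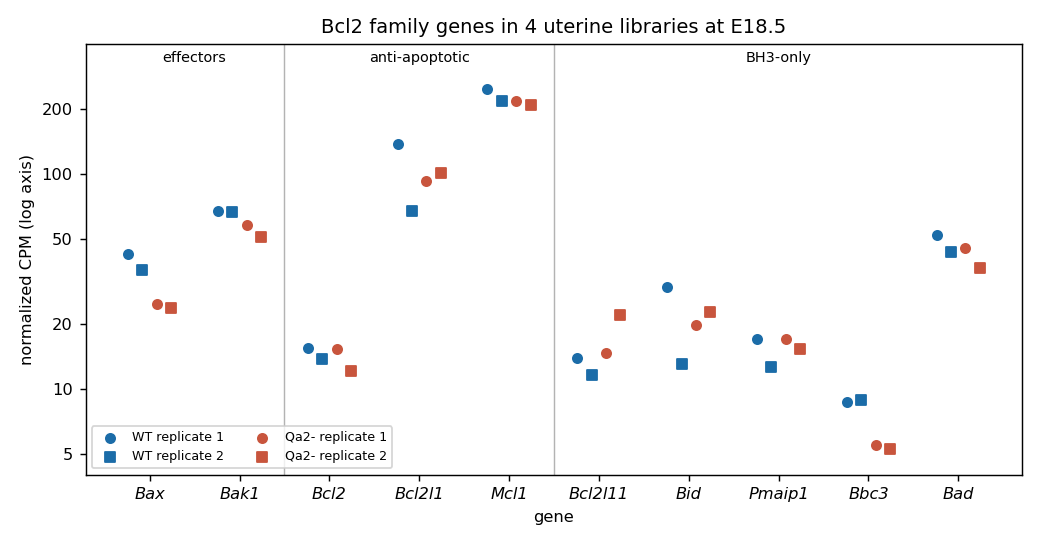
Normalized CPM (log axis) of the 10 genes, grouped by role, with 1 point per library (blue, WT; red, Qa2-; circle, replicate 1; square, replicate 2). Bax, Bak1 and Bbc3 were higher in both WT libraries and Bcl2l11 was lower in both, while the points of the other 6 genes overlapped.

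Among the BH3-only genes, Bbc3 and Bcl2l11 separated the groups, in opposite directions. Bbc3 (PUMA), known as a target of p53, had 349 and 334 counts in WT and 196 and 184 in Qa2-, or 8.69 and 8.86 CPM against 5.52 and 5.26 CPM. The libraries within a group lay close together, at 1.02-fold in WT and 1.05-fold in Qa2-. The log2 fold change was 0.70 (SE 0.23, 95% CI 0.12 to 1.29), with an unadjusted p of 0.0267 and an adjusted p of 0.294 by edgeR. It lay between 0.67 and 0.74 when any single library was left out.

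Bcl2l11 (Bim), an activator that binds all anti-apoptotic members, was measured at 13.9 and 11.6 CPM in WT and at 14.7 and 22.0 CPM in Qa2-. Both WT libraries were lower, but WT replicate 1 and Qa2- replicate 1 were close. The log2 fold change was -0.52 (SE 0.26, 95% CI -1.19 to 0.14, adjusted p = 0.400 by edgeR). It was -0.21 without Qa2- replicate 2, the library with the highest level. Without Qa2- replicate 1 it was -0.78, and without WT replicate 2 it was -0.41.

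Bid, which caspase-8 cleaves to link death receptors to mitochondria, showed the widest spread of the family, at 29.9 and 13.0 CPM in WT and at 19.8 and 22.9 CPM in Qa2-. Its WT libraries differed by 2.29-fold, with Qa2- between them, so that the log2 fold change of 0.01 (95% CI -1.02 to 1.04) leaves room for a large difference in either direction. Without WT replicate 1 it was -0.74 (adjusted p = 0.271 by edgeR), without WT replicate 2 it was 0.48, and without Qa2- replicate 1 it was -0.09. WT replicate 1 was thus the highest library for both Bcl2l1 and Bid, as it was for Bax, Bak1, Bcl2, Mcl1 and Bad. Pmaip1 (Noxa), a partner of Mcl1, stood at 17.1 and 12.7 CPM in WT and at 17.1 and 15.4 CPM in Qa2- (log2 fold change -0.13, 95% CI -0.69 to 0.44). Bad, whose binding is switched off by phosphorylation, stood at 52.1 and 43.5 CPM in WT and at 45.1 and 36.4 CPM in Qa2- (log2 fold change 0.23, 95% CI -0.25 to 0.71). Both overlapped between the groups. Pmaip1 changed sign without WT replicate 2 (0.0681), and Bad ranged from 0.0686 without WT replicate 1 to 0.394 without Qa2- replicate 1.

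**Figure D3:**
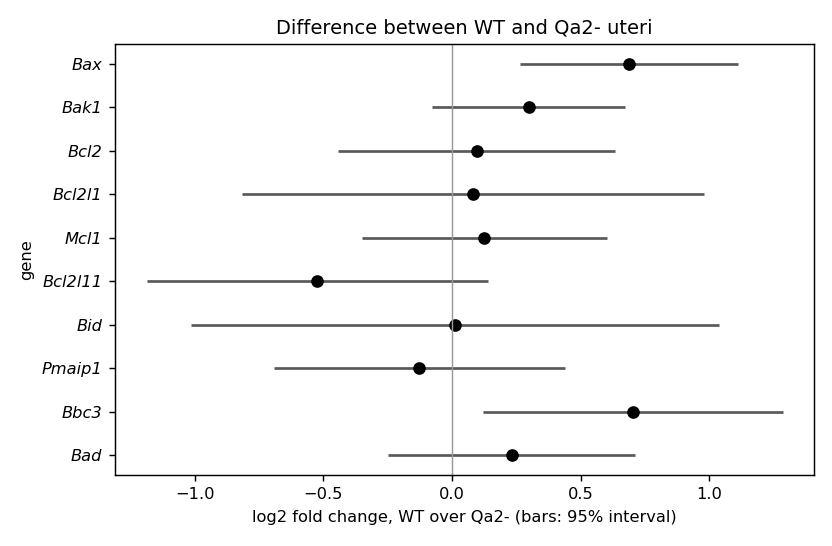
Log2 fold change of WT over Qa2- for each of the 10 genes (points) with its 95% confidence interval (bars) from edgeR. The intervals of Bax (0.26 to 1.11) and Bbc3 (0.12 to 1.29) lay above 0, before adjustment over all genes, and those of the other 8 genes held 0.

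Counted over the family, 0 of the 10 genes passed an adjusted p of 0.05 by edgeR in either direction, and 0 passed by DESeq2. The background was 0% of all genes tested by edgeR in each direction, and by DESeq2 2.79% higher and 2.04% lower in WT. At an unadjusted p under 0.05, edgeR gave 2 members higher in WT, Bax and Bbc3, and none lower, where 8.09% of all genes were higher and 7.09% lower. Both WT libraries lay above both Qa2- libraries for 3 members (Bax, Bak1, Bbc3) and below them for 1 (Bcl2l11). Over all genes these shares were 25.4% and 24.5%, so that 3 of 10 lies near the background and 1 of 10 below it. The median log2 fold change was 0.11 over the 10 genes and 0.01 over all genes tested. By role, the median was 0.49 for the 2 effectors, 0.10 for the 3 anti-apoptotic genes and 0.01 for the 5 BH3-only genes.

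The balance of effectors and their inhibitors is often expressed as a ratio, which was formed per kilobase within each library. Bax over Bcl2 was 15.9 and 15.1 in WT against 9.42 and 11.4 in Qa2-. Bax plus Bak1 over Bcl2 plus Bcl2l1 plus Mcl1 was 0.527 and 0.633 in WT against 0.466 and 0.431 in Qa2-. Both ratios were higher in both WT libraries, by 1.49-fold and 1.29-fold in the mean of logs. With 2 mice in each group, a two-sided exact permutation test cannot go below p = 0.333, and both ratios gave that value (also 0.333 after Benjamini-Hochberg adjustment over the 2 ratios). Leaving out 1 library gave log2 differences of 0.44 to 0.72 for the first ratio (0.58 with all 4) and of 0.24 to 0.50 for the second (0.37 with all 4). The second was lowest without WT replicate 2, the library with trophoblast markers. The first ratio shares its numerator with the result for Bax, and is a description of the same counts. Both ratios hold the level of Bax per kilobase, which can be understated in every library.

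**Figure D4:**
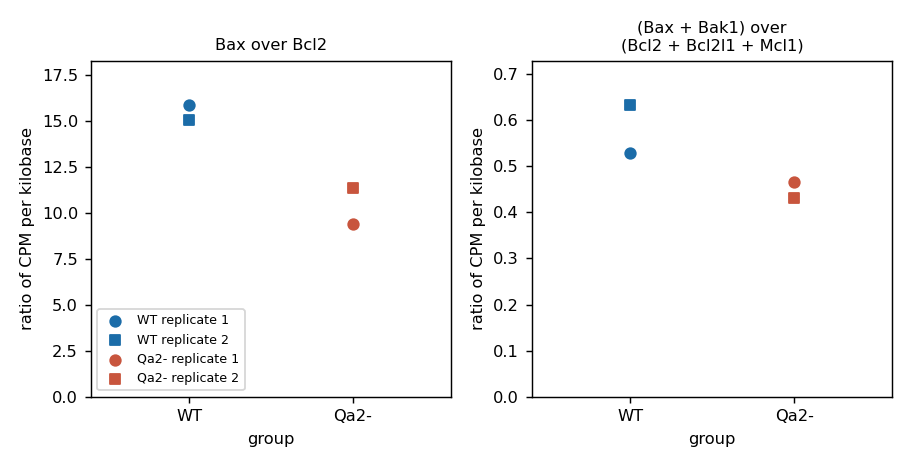
Ratio of CPM per kilobase of Bax to Bcl2 (left) and of the summed effectors to the summed anti-apoptotic genes (right), with 1 point per library and axes from 0. The WT libraries (15.9 and 15.1; 0.527 and 0.633) lay above the Qa2- libraries (9.42 and 11.4; 0.466 and 0.431) in both panels.

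Of 15 other genes of the family, 10 passed the filter and 0 were called by edgeR, with a median log2 fold change of 0.12. At an unadjusted p under 0.05 by edgeR, 2 were higher and 1 lower in WT, beside 8.09% and 7.09% of all genes. DESeq2 called 1 higher, Bok, and 0 lower, beside 2.79% and 2.04% of all genes. Bok, a further pore-forming effector that acts apart from Bcl2 control, was measured at 93.2 and 83.3 CPM in WT and at 53.5 and 45.7 CPM in Qa2-. The groups were well apart, with a log2 fold change of 0.83 (SE 0.16, adjusted p = 0.246 by edgeR). By DESeq2 Bok was called (adjusted p = 0.0160), and its adjusted p ranged from 0.0160 to 0.818 over all alternatives. Bnip3, which serves mitophagy and responds to low oxygen, stood at 94.7 and 37.0 CPM in WT and at 28.9 and 29.1 CPM in Qa2- (log2 fold change 1.19, SE 0.44, adjusted p = 0.317 by edgeR). WT replicate 1 set this value. Without WT replicate 1 the log2 fold change was 0.33, and without WT replicate 2 it was 1.71 (adjusted p = 0.0343 by edgeR, range 0.0343 to 0.818 over all alternatives). Bmf, a BH3-only gene tied to the cytoskeleton, was lower in both WT libraries, at 14.6 and 21.1 CPM against 23.8 and 38.4 CPM (log2 fold change -0.80, SE 0.31, adjusted p = 0.325 by edgeR). Bmf had a log2 fold change of -0.41 without Qa2- replicate 2, which had the highest level, and -1.10 without Qa2- replicate 1. Bcl2a1b (0.76), Bcl2l14 (-0.68) and Bcl2l13 (-0.16 on the log2 scale) overlapped between the groups, and Bcl2a1b shares near-identical copies with other Bcl2a1 genes, so that its counts are uncertain. These low or uneven values rested on single libraries. Leaving out 1 library gave 0.08 (without Qa2- replicate 1) to 2.09 (without Qa2- replicate 2) for Bcl2a1b, -1.53 (without WT replicate 1) to -0.17 (without WT replicate 2) for Bcl2l14, and -0.41 to 0.03 (without WT replicate 2) for Bcl2l13.

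Downstream of the pores, all 20 listed genes of the mitochondrial pathway passed the filter, 0 were called by edgeR, and the median log2 fold change was -0.04. Htra2, a mitochondrial protease that can displace caspase inhibitors, was at 47.1 and 32.8 CPM in WT and at 22.2 and 25.0 CPM in Qa2- (log2 fold change 0.76, SE 0.23, adjusted p = 0.281 by edgeR). It was the only gene of the list at an unadjusted p under 0.05, and stood at 0.45 on the log2 scale without WT replicate 1. Of the whole list, 5 genes were higher and 5 lower in both WT libraries, and 10 overlapped. Of 5 caspase inhibitors of the IAP group, 4 were lower in both WT libraries and Birc5 was higher, an order that 24.5% and 25.4% of all genes showed. Of 7 other mitochondrial proteins, 4 were higher and 0 lower in this way. None of the 5 was at an unadjusted p under 0.05 by edgeR. Their log2 fold changes included -0.68 for Birc3, -0.35 for Birc6 and 0.63 for Birc5, and Xiap, named after its value was seen, was the nearest to 0 of the 4 at -0.06. Birc3 was -0.20 without Qa2- replicate 2 and -1.03 without Qa2- replicate 1. Vdac3, an outer membrane channel (0.32), was higher in both WT libraries and Dffb, a nuclease of DNA fragmentation (-0.49), was lower.

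The death receptor pathway meets the family at Bid. Of 10 listed genes, 9 passed the filter, 0 were called by edgeR, and the median log2 fold change was 0.14. DESeq2 called 1 higher and 0 lower in WT, beside 2.79% and 2.04% of all genes. At an unadjusted p under 0.05 by edgeR, 1 gene was higher and 0 lower, beside 8.09% and 7.09% of all genes. That gene was Fas, the receptor for Fas ligand, at 6.70 and 8.64 CPM in WT and at 3.07 and 3.35 CPM in Qa2- (log2 fold change 1.26, SE 0.28, adjusted p = 0.246 by edgeR). By DESeq2 Fas was called (adjusted p = 0.0145, range 0.0145 to 0.818 over all alternatives). Fas, like Bax, was in the study's own list from these libraries. Tnfrsf10b (0.39) and Tnfrsf1a (0.38), which also code for receptors of this family, were higher in both WT libraries. Casp8 (-0.01) and Cflar (-0.02), which carry or block the signal inside the cell, overlapped. Tnfsf10, the ligand TRAIL, reached 71.2 CPM in Qa2- replicate 2 and 24.3 to 27.6 CPM in the other libraries, and its log2 fold change was -0.81 with and 0.16 without that library.

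**Figure D5:**
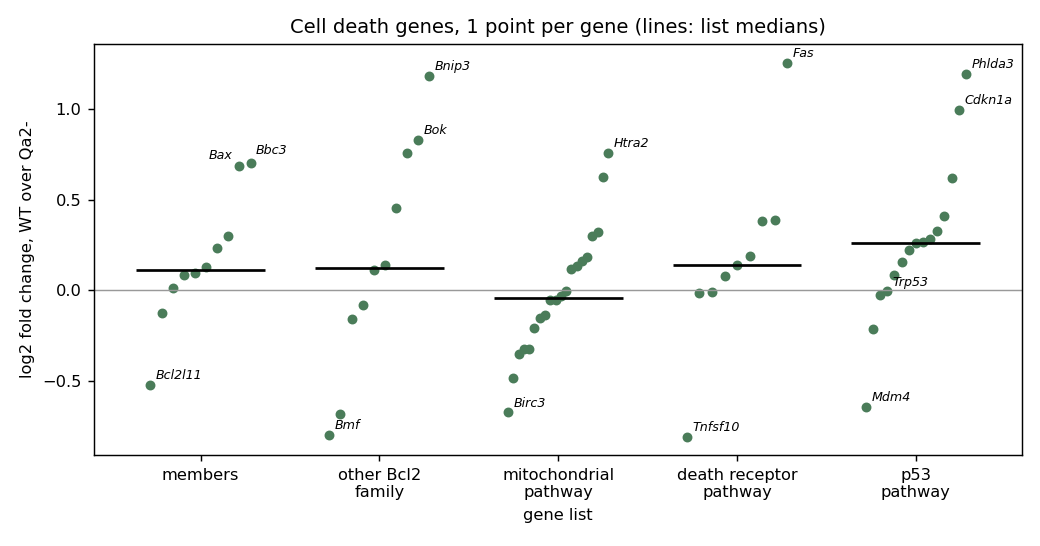
Log2 fold change of WT over Qa2- for each gene that passed the filter in the 10 members and 4 wider lists, with lines at the list medians (0.11, 0.12, -0.04, 0.14 and 0.26 from left to right). No point passed the adjusted threshold by edgeR, and Fas, Phlda3 and Bnip3 lay highest.

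Bax, Bbc3 and Pmaip1 are textbook targets of p53, and 15 further genes of that pathway were listed. All 15 passed the filter, 0 were called by edgeR, and the median log2 fold change was 0.26. At an unadjusted p under 0.05 by edgeR, 2 were higher and 1 lower in WT, beside 8.09% and 7.09% of all genes. DESeq2 called 1 higher, Phlda3, and 0 lower, beside 2.79% and 2.04% of all genes. Trp53 itself, which is controlled mainly at the protein level, stood at 46.9 and 58.0 CPM in WT and at 45.9 and 59.5 CPM in Qa2- (log2 fold change -0.01, SE 0.20). Phlda3, an inhibitor of Akt signalling, was at 73.9 and 51.0 CPM in WT against 28.7 and 25.8 CPM in Qa2- (log2 fold change 1.20, SE 0.23, adjusted p = 0.246 by edgeR). By DESeq2 Phlda3 was called (adjusted p = 0.00292, range 0.00292 to 0.818 over all alternatives). Cdkn1a, the cell cycle inhibitor p21, was at 142 and 87.0 CPM in WT against 67.7 and 46.8 CPM in Qa2- (log2 fold change 0.998, SE 0.31, adjusted p = 0.286 by edgeR). It was 0.58 without WT replicate 1 and 1.30 without WT replicate 2. Mdm4, which restrains p53, was lower in both WT libraries (log2 fold change -0.65, SE 0.22, adjusted p = 0.302 by edgeR; -0.42 without WT replicate 1). Ccng1 (0.62) was higher in both WT libraries, while Gadd45a (-0.21) and Trp53inp1 (-0.03) overlapped. Ccng1 rested on WT replicate 1, without which it was 0.12, and it was 0.97 without WT replicate 2. Gadd45a was 0.16 without WT replicate 2 and 0.58 without Qa2- replicate 2, and Trp53inp1 was 0.50 without WT replicate 2 and -0.91 without WT replicate 1. Of the 12 listed targets of p53, 10 had log2 fold changes above 0, as had 7400 of all 14492 genes tested. In both WT libraries 5 of the targets were higher and 0 lower, beside 25.4% and 24.5% of all genes, and 7 overlapped.

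The promoters of the members were searched for the p53 half-site, the 10-base motif of which a full response element holds a pair. RefSeq windows from 250 bases before to 50 bases after a start were given for 9 members (15 windows, GRCm38.p6), all but Pmaip1. In the Bax window 1 half-site was found, 201 bases before the start, and it is shown in capitals within 40 bases of the sense strand at chr7:45467075-45467114 (minus strand).
Bax promoter: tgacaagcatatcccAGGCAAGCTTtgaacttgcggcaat
The other 14 windows, those of Bbc3 included, held none of these letters. Both strands were searched, and 8.36% of 32851 promoters of the same length held a half-site.

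Markers of several cell types separated the groups, some in the direction of Bax and Bbc3 and some in the opposite one. Of 48 listed markers 39 were tested and 0 passed the adjusted threshold by edgeR (smallest adjusted p = 0.244). At an unadjusted p under 0.05 by edgeR, 12 were higher and 1 lower in WT, beside 8.09% and 7.09% of all genes. DESeq2 called 11 higher (all 5 endothelial, all 4 erythroid and 2 smooth muscle markers) and 1 epithelial marker lower in WT, beside 2.79% and 2.04% of all genes and 0 of the 10 family genes. Without overlap, 20 of the 39 were higher and 5 lower in WT, where all genes gave 25.4% and 24.5%. Each of 5 endothelial markers was higher in the WT libraries, without overlap, and their summed level was 1039 and 913 CPM in WT against 463 and 429 CPM in Qa2-. All 4 erythroid markers were higher too, at 349 and 688 CPM against 109 and 72.0 CPM in sum. The ratio of group means was 5.72 for the erythroid and 2.19 for the endothelial sum, larger than the fold of any of the 10 family genes. Of 5 smooth muscle markers 4 were higher in both WT libraries (summed level 21460 and 34610 CPM against 18660 and 10510 CPM), as were 3 of 5 stromal markers (1702 and 1920 CPM against 1522 and 1022 CPM). Of 5 epithelial markers 4 were lower in both WT libraries (2032 and 1206 CPM against 2868 and 2735 CPM), the order seen for Bcl2l11. Of 7 leucocyte markers 5 passed the filter, of which 2 were higher and 1 lower in both WT libraries, and their sum overlapped (224 and 355 CPM against 290 and 200.2 CPM). The sum of 4 neutrophil markers was low but higher in both WT libraries (8.74 and 8.80 CPM against 4.37 and 6.29 CPM), with Ly6g at 0 in 3 of 4 libraries. Of the 2 that passed the filter, Csf3r was higher in both WT libraries and S100a9 overlapped. The sum of 4 proliferation markers was 86.0 and 87.3 CPM in WT against 85.3 and 57.4 CPM in Qa2-. The part of these cell types in the values of the Bcl2 family was not tested.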

How the data were processed

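Whole uteri at E18.5 from 2 WT and 2 Qa2- mice were sequenced, with 1 strand-specific poly(A) library per mouse in paired 100-base reads. The authors aligned reads with STAR 2.7.3a to GRCm38.p6 and deposited raw counts of read pairs (featureCounts 2.0.0, reverse strand, both ends mapped, mapping quality of at least 3). Pairs with several positions or genes were not counted. Identifiers were matched to GENCODE M21 for symbols (55240 of 55421).

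Groups follow the labels. Genes that reached 1 CPM in 2 or more samples were tested with edgeR 4.0.16 (TMM, glmQLFit and glmQLFTest) in R 4.3.3, with Benjamini-Hochberg adjustment over 14492 genes. The SE is the log2 fold change divided by the square root of F. DESeq2 1.42.0 and other scalings, filters and designs were alternatives. Ratios were compared by exact permutation (scipy 1.17.1). The fits were tested on simulated counts.

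The members and gene lists were chosen with earlier results of these data known. Named are all members, from each wider list the 3 genes highest and the 3 lowest in log2 fold change, and Trp53. Xiap was named after its value was seen. Values of some listed genes are not reported here. The replicates of a group differed by more than counting noise. Counting floors and depth cover counting error only.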

Additional observations from a re-analysis of the deposited data

How the results depend on the processing

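No member passed the adjusted threshold under any alternative run. Of 140 values of the 10 members under an alternative, 127 kept their direction and 13 turned it, and Bax, Bak1, Bcl2l11, Bbc3 and Bad turned in none. Over the whole table, 0 genes were called by edgeR (2199 at an unadjusted p under 0.05), against 700 by DESeq2 (404 higher and 296 lower in WT), 61 without a filter on low counts and 2 with the replicate block. Leaving out 1 library gave 0 to 93 genes, with 93 without WT replicate 2 and 4 without WT replicate 1. The cause was not tested. A fit that leaves a group with 1 library assumes that it varies like the other group.

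Deviations of same-numbered libraries correlated at -0.37 and those of WT replicate 1 with Qa2- replicate 2 at 0.37, its mirror with 2 libraries per group. This single value cannot tell whether same-numbered libraries shared a batch. With the replicate block, 1 member, Bax, was at an unadjusted p under 0.05. The crossed pairing (WT replicate 1 with Qa2- replicate 2), added after the data were seen, called 0 genes and 0 members, and put 3 members (Bax, Bbc3 and Bcl2l11) at an unadjusted p under 0.05.

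Leaving out 1 library gave 1 to 2 members at an unadjusted p under 0.05, 3 to 8 members higher and 1 to 4 lower in WT (8 higher without WT replicate 2, 6 without Qa2- replicate 1; 4 lower without WT replicate 1, 2 without Qa2- replicate 2; of all genes, 36.4% to 38.1% were higher and 34.7% to 39.7% lower in these settings), and a median log2 fold change of -0.0114 (without WT replicate 1) to 0.33 (without WT replicate 2). Without WT replicate 1 the members at an unadjusted p under 0.05 were Bcl2l1 and Bid, both lower in WT, while Bax stood at 0.0536. Without Qa2- replicate 1 they were Bax and Bcl2l11, and without either remaining library Bax alone. Single genes also turned: Bcl2 (-0.0609 to 0.27), Bcl2l1 (-0.56 to 0.50), Mcl1 (-0.0019 to 0.22), Bid (-0.74 to 0.48), Pmaip1 (-0.39 to 0.0681), Bcl2l13 (-0.41 to 0.0306), Tnfsf10 (-1.39 to 0.16), Cflar (-0.13 to 0.0604), Casp8 (-0.11 to 0.0915), Gadd45a (-0.77 to 0.58), Trp53inp1 (-0.91 to 0.50) and Trp53 (-0.18 to 0.19). Bcl2l1 was -0.0098 by library totals, -0.0085 with the replicate block and -0.0076 with the crossed pairing. Bid was -0.0805, -0.104 and -0.100 under the same settings. Without the filter, Casp8 was 0.0006 and Trp53 0.0039.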
